A study of Mus musculus with 3 samples.

Results

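Mature migratory dendritic cells of mouse inguinal white fat are described here across their genes and by library. They were chosen by a rule on raw UMIs, the unique molecular identifiers that count captured RNA molecules. A cell needed at least 500 detected genes and at most 15% of its UMIs from mitochondrial genes. It also needed at least 4 UMIs of Fscn1, Ccl22, Ccr7 and Cacnb3 together with at least 2 of these genes detected, at least 10 UMIs of H2-Ab1 and Cd74 together, no Cd79a, and at most 2 UMIs of C1qa, C1qb and C1qc together. The rule found 497 cells among the 16838 that passed the gene and mitochondrial limits and the 20667 barcodes in the files. Of these members 246 came from the saline library, 167 from the cold library and 84 from the library of mice given CL 316,243, called CL below.

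All mice were C57BL/6, and each library held cells of the stromal vascular fraction, which is what remains of dissociated fat once the adipocytes are removed. The saline mice were the controls, the cold mice were kept at 4 C for 3 days, and the CL mice received 1 mg/kg of this β3-adrenergic receptor agonist into the peritoneum for 3 days. There was 1 library per treatment, so no difference between treatments has a replicate check or a test, and a treatment cannot be told apart from its library. The labels give neither the number of animals behind a library nor their age or sex, and no duration for saline. Intervals below are 95% and cover counting error only.

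Dendritic cells take up antigen in tissues and present it to T cells. On maturation they lower uptake, raise costimulatory molecules and turn on Ccr7, the receptor for the lymphatic chemokines that lead them to the draining lymph node. Fscn1 encodes fascin, which bundles actin in the long processes of mature dendritic cells. Ccl22 is a chemokine that attracts regulatory and other T cells through Ccr4, and Cacnb3 encodes a subunit of voltage-gated calcium channels. Inguinal fat contains a lymph node, and the labels do not say whether it was removed.

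The members were sequenced deeply enough to see most of these genes in single cells. Their median UMI count was 5264 in saline, 5994 in cold and 4101 in CL, and their median number of detected genes was 1518, 1718 and 1358. The CL members were thus the shallowest as well as the fewest. All 4 rule genes were detected in 137 saline, 103 cold and 36 CL members. The libraries shared 11 barcodes between saline and cold, 14 between saline and CL and 9 between cold and CL, and no barcode was a member in more than 1 library.

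Few cells lay near the rule's threshold. Just inside it, with 4 or 5 UMIs of the rule genes, lay 23 members, and just outside it, with 2 or 3 UMIs, lay 25 cells. Apol7c stood at 163 CPM (UMIs summed over cells and scaled to a total of 1000000) just inside and at 93.1 CPM just outside, against 1762 CPM in the 440 members with 10 or more UMIs of the rule genes. Cd209a, a lectin of type 2 dendritic cells, stood at 184 CPM just inside, 186 CPM just outside and 4.07 CPM in those 440 members. A further 85 cells reached 4 UMIs with 1 rule gene alone and were not members; they held no Ccl17 and 18.5 CPM of Apol7c.

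The members also carried the markers of this cell type that the rule did not use. Apol7c, an apolipoprotein L gene, stood at 1824, 1360 and 1690 CPM in saline, cold and CL members, against 12.9 CPM in type 1 and 0.762 CPM in type 2 dendritic cells. Il4i1, a secreted enzyme that breaks down aromatic amino acids and restrains T cells, stood at 775, 908 and 877 CPM, against 1.38 and 77.8 CPM. These comparator cells were also taken by marker rules: 262 type 1 cells with Xcr1 or Clec9a, and 250 type 2 cells with Cd209a but no Xcr1, Clec9a or Siglech. The levels of these genes in the comparator cells are thus set in part by the rules. Since the rule already sets the members apart from other cells, these contrasts are a description with no test. The rule genes themselves differed by less than 2-fold between libraries: Fscn1 stood at 1568, 1772 and 1323 CPM, Ccl22 at 1307, 1264 and 973 CPM, Ccr7 at 1538, 1894 and 2219 CPM, and Cacnb3 at 533, 562 and 436 CPM.

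**Figure D1:**
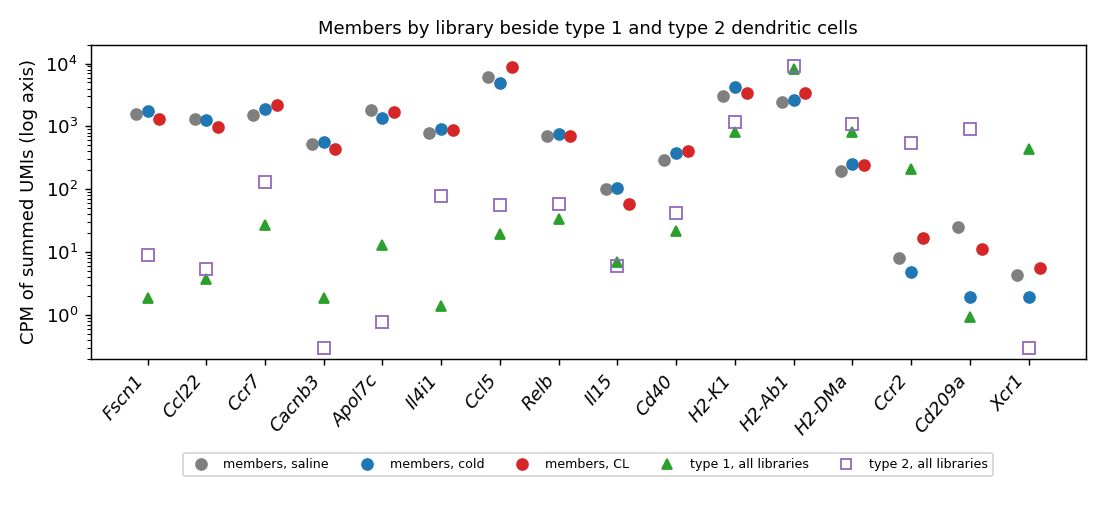
Levels of 16 genes on a log axis of CPM, with 1 point per library for the members (grey saline, blue cold, red CL). Triangles give the pooled level in type 1 and squares that in type 2 dendritic cells. A level of 0 is drawn near the foot of the axis. Type 2 cells had it for Cacnb3, and for Xcr1 because their rule allows none. The 4 rule genes, Apol7c, Il4i1, Ccl5 and Relb lay far above both other classes in each library, while H2-DMa, Ccr2 and Cd209a lay below the type 2 level in each. The rule for type 2 cells requires Cd209a.

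Members made up a similar share of the saline and cold cells and a smaller share of the CL cells. They were 3.92% (3.46 to 4.43) of all kept saline cells, 4.32% (3.70 to 5.01) of cold cells and 1.25% (1.00 to 1.55) of CL cells. The log2 ratio to saline was 0.14 (-0.14 to 0.42) in cold, an interval that spans 0, and -1.65 (-2.00 to -1.29) in CL. Among antigen-presenting cells, meaning those that pass the limits on H2-Ab1, Cd74, Cd79a and C1q, members were 21.5% of 1142 in saline, 27.9% of 599 in cold and 8.59% of 978 in CL. There the log2 ratio was 0.37 (0.13 to 0.62) in cold and -1.33 (-1.66 to -0.99) in CL. When every cell was thinned to 2000 UMIs before the rule was applied, the cold ratios turned to -0.44 among all cells and -0.11 among antigen-presenting cells, so the direction in cold turned with that setting.

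The share in CL depended on which cells it was set against. For each 100 type 1 dendritic cells there were 173 members in saline, 278 in cold and 140 in CL, and for each 100 type 2 cells 189, 304 and 129. The CL ratios to saline were then -0.31 (-0.87 to 0.26) and -0.55 (-1.11 to 0.01), both with intervals that reach 0. Against macrophages the CL ratio was -2.62 and against B cells it was 1.37, because the CL library held 1483 macrophages and 148 B cells where saline held 706 and 1118. With such shifts in the other cells, fewer members and more of the other cells cannot be told apart.

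**Figure D2:**
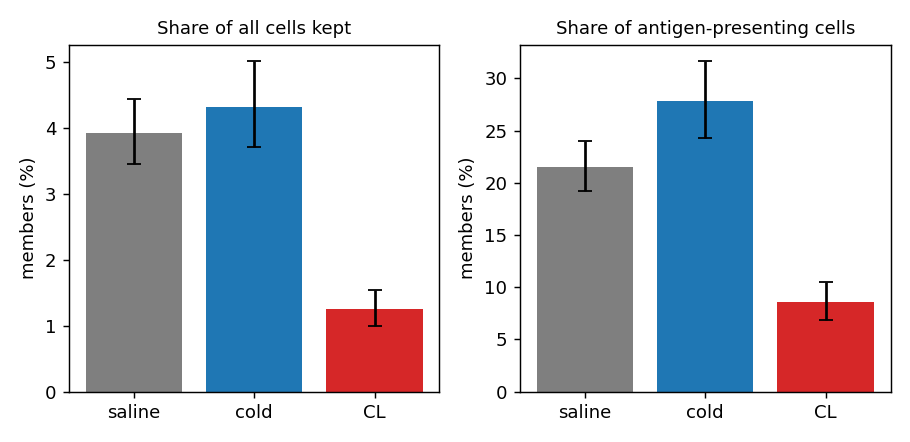
Share of members in percent, of all kept cells (left) and of antigen-presenting cells (right), in the saline, cold and CL libraries; bars are the share and lines the exact 95% interval of counting. CL stood lowest in both panels, at 1.25% and 8.59%, and the saline and cold intervals overlapped on the left.

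Of 5792 genes with at least 50 UMIs, 499 were at least 2-fold higher in members than in type 2 dendritic cells in each of the 3 libraries. A further 532 were at least 2-fold lower in each. The rule genes were not left out of these counts. Ccl22, Cacnb3 and Fscn1, which the rule uses, were among the 15 leading genes by ratio, as was Apol7c. Ccl5, which draws T cells and other leukocytes, was the most abundant of the leading genes, at 6092, 4840 and 8932 CPM against 55.7 CPM in type 2 cells. Socs2, a feedback inhibitor of cytokine signalling, stood at 455, 451 and 441 CPM against 2.29 CPM, nearly the same in each library. Tnfrsf4, the costimulatory receptor OX40, stood at 317, 470 and 267 CPM against 0.762 CPM. The annexin gene Anxa3, the tetraspanin gene Cd63, the enolase gene Eno3 and the serpin gene Serpinb6b were also among the 15 leading genes, at 828, 960, 485 and 781 CPM in saline members. Synpo2, Nudt17, Slc4a8 and Slco5a1 completed them at 225, 267, 227 and 179 CPM.

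Several receptor genes were among the 10 lowest against type 2 cells, which also included Cd209a, the gene that the rule for type 2 cells requires. Ccr2, the receptor that brings monocytes and dendritic cell precursors into tissue, stood at 8.04, 4.83 and 16.5 CPM in members and at 551 CPM in type 2 cells. Ltb4r1, the leukotriene B4 receptor, had 4, 1 and 0 UMIs in members and 120 CPM in type 2 cells. Fcgr3, an activating antibody receptor, had 3 UMIs in saline and none in cold or CL. Mmp12, Cysltr1, Abca9, Ifitm6, Tifab and Skint3 each had at most 4 UMIs in any library's members.

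Genes of antigen uptake and pattern recognition stood below type 2 cells and near type 1 cells. The 16 genes summed to 604, 694 and 695 CPM in saline, cold and CL members, against 2674, 2787 and 2776 CPM in type 2 and 742, 630 and 798 CPM in type 1 cells. Fcer1g, a signalling subunit of antibody receptors, stood at 375, 432 and 491 CPM in members. Mrc1, the mannose receptor, stood at 7.31, 7.73 and 8.27 CPM against 167 CPM in type 2 cells, and Clec10a, a galactose-binding lectin, at 19.0, 11.6 and 13.8 CPM against 389 CPM. Tlr4 and Msr1 had no UMI in any member. Ly75 went the other way, the uptake receptor DEC-205, stood at 92.1, 139 and 57.9 CPM against 32.6 CPM in type 1 and 0.762 CPM in type 2 cells.

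Summed over their lists, class II presentation genes stood below type 1 and type 2 cells and class I genes above them, in each library. Plasmacytoid dendritic cells held less class II, at 12011, 13247 and 8192 CPM against 20278, 21826 and 23382 CPM in members. H2-Ab1 and Cd74 are in the class II list and in the rule. H2-Aa stood at 4770, 4805 and 5076 CPM in members against 7021 CPM in type 1 and 9148 CPM in type 2 cells. H2-DMb1, a chain of the complex that loads peptides on class II molecules, stood at 63.6, 103 and 108 CPM against 577 and 710 CPM. March1, the ligase that removes class II molecules from the surface of immature dendritic cells, had 4, 5 and 0 UMIs in members, against 86.9 CPM in type 1 and 50.3 CPM in type 2 cells. H2-K1, a class I heavy chain, stood at 3089, 4296 and 3405 CPM against 806 and 1167 CPM, and B2m, its light chain, at 3608, 4312 and 3567 CPM against 920 and 1286 CPM. Class I and class II genes have close relatives, so reads may be split between them.

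Genes of the NF-kB pathway, which drives dendritic cell maturation, were unevenly higher than in the other classes. Relb, the subunit of the noncanonical pathway, stood at 698, 765 and 692 CPM against 33.5 CPM in type 1 and 58.7 CPM in type 2 cells. Its partner Nfkb2 stood at 191, 205 and 185 CPM against 46.4 and 51.1 CPM, and Birc2, an inhibitor of apoptosis, at 366, 377 and 309 CPM against 15.6 and 37.4 CPM. Nfkb1, of the canonical pathway, was lower in members than in type 2 cells, at 196, 231 and 212 CPM against 469 CPM. None of 18 genes was 2-fold higher or lower in cold or CL than in saline, against 4.35% and 8.56% of all genes. This count was near the background. The list's median log2 ratio to saline was 0.08 in cold and -0.06 in CL. For CL over cold 12 of 18 genes were lower, against 54.4% of all genes, with a median of -0.13. Bcl2a1d was the 1 gene at least 2-fold lower there, against 4.62% of all genes.

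The upstream sequences of these genes were read for the NF-kB consensus motif in the 250 bases before the start site, on both strands, from RefSeq promoters of the build GRCm38.p6. Of the 18 genes of the list 15 were in the table, and 7 held a match (Bcl2l1, Nfkb2, Nfkbia, Nfkbie, Rel, Tnfaip3 and Tnip3). Such a match was found in 4.46% of all genes with an entry. Fscn1, Ccl22 and Cacnb3 held none nor did Apol7c and Il4i1, while Ccr7, Relb and Nfkb1 had no entry. A match is a run of letters and not a shown binding site, and overlapping matches are capitalised as 1 run. The stretches of 3 genes that most members expressed are printed 5′ to 3′ on the gene's strand, with the matches in capitals, from chr19:46304678-46304736 (plus strand), chr12:55492648-55492696 (minus strand) and chr11:23771031-23771081 (minus strand).
Nfkb2: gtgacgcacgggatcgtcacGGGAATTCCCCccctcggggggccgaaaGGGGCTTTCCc
Nfkbia: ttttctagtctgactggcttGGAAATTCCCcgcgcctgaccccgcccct
Rel: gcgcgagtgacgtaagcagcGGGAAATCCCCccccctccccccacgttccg

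Costimulatory and regulatory molecules were expressed side by side. Cd40, through which T cells license dendritic cells, stood at 295, 378 and 408 CPM against 21.6 CPM in type 1 and 42.7 CPM in type 2 cells. Cd83, a maturation marker, stood at 589, 697 and 711 CPM against 431 and 571 CPM, and Cd86 at 122, 181 and 174 CPM against 161 and 165 CPM, so these 2 genes set members apart less. Cd274, which encodes the inhibitory ligand PD-L1, stood at 84.1, 88.0 and 63.4 CPM against 4.60 and 22.1 CPM. Cd200 and Fas stood at 63.6 and 71.7 CPM in saline members against 2.29 and 8.39 CPM in type 2 cells. In cold, 8 of 12 costimulatory genes were higher than in saline, with a median of 0.22. Over all genes 60.7% were higher, with a median of 0.11, so this count was near the background. None was past 2-fold, against 4.35% of all genes, which was also near the background.

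Of the motility genes Tmem123, a surface mucin, stood at 2801, 2528 and 2280 CPM against 43.2 CPM in type 1 and 127 CPM in type 2 cells. Marcks and Basp1, membrane-bound regulators of actin, stood at 1395 and 1504 CPM in saline members against 329 and 169 CPM in type 2 cells. Swap70, which shapes actin in moving leukocytes, stood at 359, 372 and 400 CPM against 41.9 CPM. None of the 18 genes of this list was past 2-fold between libraries. The share over all genes was 4.35% in cold over saline, 8.56% in CL over saline and 7.08% in CL over cold. The count for this list was thus near the background. Coro1a went the other way from type 2 cells, at 274, 326 and 372 CPM against 1046 CPM.

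The members also held transcription factors of both conventional dendritic lineages. Irf8, the factor of the type 1 lineage, stood at 422, 513 and 405 CPM, between 1534 CPM in type 1 and 35.8 CPM in type 2 cells. Batf3, also of the type 1 lineage, stood at 220, 230 and 157 CPM against 144 and 41.2 CPM. Zeb2, a factor of the type 2 lineage, stood at 164, 137 and 182 CPM, between 12.4 and 422 CPM. Irf4, also of the type 2 lineage, had 50, 27 and 4 UMIs in the saline, cold and CL members. Surface markers of the lineages were uneven. Xcr1 had 6, 2 and 2 UMIs, Clec9a 6, 3 and 0, and Cd209a 34, 2 and 4. Sirpa, of the type 2 lineage, had 113, 86 and 53 UMIs, in 64, 39 and 29 members. Epcam, found on Langerhans cells, had 16, 25 and 2 UMIs, and Cd207 had 4, 7 and 0.

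Detection varied between genes in single members, and for Fscn1, Ccl22, Ccr7 and Cacnb3 the rule sets it in part. With each cell thinned to 2000 UMIs, which left out 6 of 497 members, Ccr7 was detected in 88.4% of members and Fscn1 in 84.9%, but Ccl22 in 52.5% and Ccl17 in 15.5%; unthinned these shares were 97.4%, 94.4%, 66.6% and 26.2%. B cells, which should lack Fscn1, Ccl22 and Ccl17, had them in 1.30%, 0.682% and 0.558% of thinned cells, at a median of 2310 UMIs before thinning against 5258 for members. Ccl17, the other ligand of Ccr4, was detected in 26.0% of the members with Ccl22 and in 3.86% of those without it. Il12b, the shared subunit of the interleukins that drive Th1 and Th17 cells, was detected in 13.4% of members against 0.062% of B cells. Few cells held most of its RNA: the 5 highest members held 89 of 165 UMIs in saline, 212 of 347 in cold and 32 of 58 in CL.

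Cells of other types left traces that touch the comparisons below. Fat progenitor markers (7 genes, led in saline by Gsn, then Col3a1, Dcn and Col1a1) summed to 1410 CPM in saline members, 109 CPM in cold and 127 CPM in CL members. Gsn had 864 UMIs in saline members, of which 1 member held 435. In saline 4 members held 925 of the 989 UMIs of Col1a1, Col3a1 and Dcn. At least 2 UMIs of the T cell genes Cd3e, Cd3d and Cd3g were found in 7 saline, 3 cold and no CL members. Macrophage markers (9 genes, with C1q genes that the rule limits) summed to 375, 57.0 and 127 CPM, where 1 saline member held 360 of 440 Apoe UMIs, and lymph node stroma markers to 29.2, 1.93 and 0 CPM. B cell markers, of which the rule holds Cd79a at 0, summed to 81.2, 65.7 and 33.1 CPM, T cell markers to 111, 109 and 35.8 CPM and endothelial markers to 164, 65.7 and 149 CPM, while NK cell and neutrophil markers stayed at or below 5.85 CPM in each library. The part of these cells in the gene differences was not tested beyond the values without members that carry such markers.

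Cold members were set against saline members first. Of 5730 genes with at least 30 UMIs in both libraries together, 119 were at least 2-fold higher in cold (2.08%) and 130 at least 2-fold lower (2.27%), or 4.35% in either direction. Without the members carrying T cell, B cell or fat progenitor markers 82 genes were at least 2-fold lower. The median gene was 0.11 higher in cold on the log2 scale, and 60.7% of genes were higher and 39.3% lower by any size, so small ratios are read against that shift.

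Il12b had the highest ratio of cold over saline among the 8 cytokine genes measured. By level Il1b stood higher in cold members, with 419 UMIs against 347 of Il12b. Il12b stood at 121 CPM in saline, 335 CPM in cold and 160 CPM in CL, a log2 ratio of 1.48 (1.20 to 1.75) for cold over saline. It was detected in 42 of 246, 40 of 167 and 18 of 84 members, and its highest single member held 38, 86 and 10 UMIs. Leaving out the highest member of each library gave 1.44, so the ratio was nearly as large without that cell. After thinning to 2000 UMIs, where fewer members pass the rule, it was 1.10. Its partner subunit genes Il12a and Il23a had at most 2 UMIs in any library's members. Type 1 dendritic cells held Il12b at 19.9, 57.7 and 18.5 CPM in saline, cold and CL.

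Several transport and metabolic genes stood higher in cold members. Slc7a11, the cystine transporter that feeds glutathione synthesis, stood at 90.7, 247 and 171 CPM in saline, cold and CL, with a cold ratio of 1.45 (1.13 to 1.77). Rrad, a small GTPase of the Ras family, stood at 132, 320 and 254 CPM (1.28). Fdps, an enzyme of the sterol and isoprenoid pathway, stood at 35.8, 97.6 and 35.8 CPM (1.45). In the list of sterol and lipid genes 7 of 9 measured were higher in cold, with a median of 0.30, against 60.7% and 0.11 over all genes. Among them Sqle, squalene epoxidase, stood at 19.0, 41.6 and 22.1 CPM (1.13). Lpl was the 2-fold lower gene of that list, at 23.4, 1.93 and 11 CPM. Gpd2, Pkp3 and Tgif2 were the other leading genes, with cold ratios of 1.38, 1.5 and 2.12. After thinning to 2000 UMIs the cold ratio was 2.24 for Slc7a11, 0.65 for Rrad and 0.19 for Gpd2.

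Slc15a2, a transporter of small peptides, had the highest ratio of the leading genes, at 2.92, 38.7 and 16.5 CPM, or 4, 40 and 6 UMIs, with a cold ratio of 3.72 (2.26 to 5.67), and 0.85 after thinning to 2000 UMIs. This difference was not limited to members: Slc15a2 was also higher in cold than in saline in all 8 comparator classes, for example at 8.07 and 107 CPM in B cells.

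Class I presentation genes were slightly higher in cold members. Of 12 genes 11 were higher, against 60.7% of all genes, with a median of 0.44 against 0.11 over all genes. None was past 2-fold, against 4.35% of all genes, a count near the background. H2-D1 stood at 2566, 4238 and 3110 CPM (0.72), Tap1, which pumps peptides to class I molecules, at 223, 339 and 303 CPM (0.61), and Psmb10, an immunoproteasome subunit, at 219, 331 and 295 CPM (0.59). H2-D1 was also higher in cold in type 1 dendritic cells, at 1100 and 1247 CPM, and in T cells, at 986 and 1690 CPM. The summed class I list was higher in cold than in saline in the other dendritic cell classes, B cells, T cells and endothelial cells. It was lower in cold in macrophages, at 8042 and 6347 CPM, and slightly in fat progenitors, at 4087 and 4023 CPM. Class II genes were near the shift of all genes, with 9 of 12 higher and a median of 0.12.

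Heat shock genes were mostly lower in cold members. Of 10 genes 8 were lower, against 39.3% over all genes, and 4 at least 2-fold lower, against 2.27%. The median of the heat shock list was -0.69, against 0.11 over all genes. The fat progenitor markers given above stood lower still, with a median of -4.71 over 6 genes measured. Hspa1b stood at 893, 220 and 287 CPM (-2.02), its near-identical copy Hspa1a at 1340, 538 and 659 CPM (-1.32), and Hsph1, a cochaperone, at 108, 24.2 and 46.9 CPM (-2.16). Reads of Hspa1a and Hspa1b may be split between the copies. After thinning to 2000 UMIs the cold ratio was -1.07 for Hspa1a and -0.85 for Hsph1. Hspa1b was also lower in cold than in saline in all 8 comparator classes, for example at 1138 and 285 CPM in type 1 dendritic cells and 2010 and 16.4 CPM in plasmacytoid dendritic cells, though by little in macrophages (257 and 223 CPM) and fat progenitors (63.5 and 61.8 CPM). Jun, an immediate early gene that tissue dissociation is known to induce, stood at 597, 271 and 138 CPM in members and Egr1 at 249, 87.0 and 27.6 CPM.

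Aldh1a2, the retinoic acid enzyme by which dendritic cells instruct gut homing and regulatory T cells, was lowest in cold. It stood at 43.1 CPM in saline, 7.73 CPM in cold and 66.2 CPM in CL, from 59, 8 and 24 UMIs in 21, 6 and 15 members. The log2 ratio was -2.48 (-3.76 to -1.41) for cold over saline and 3.10 (1.90 to 4.46) for CL over cold. In saline 1 member held 20 of the 59 UMIs, and without the highest member of each library the cold ratio was -2.56, while after thinning to 2000 UMIs it was -0.38. Ptgs2, the inducible enzyme of prostaglandin synthesis, stood at 204, 90.9 and 130 CPM (-1.17), and Ccl17 at 341, 196 and 152 CPM (-0.80). After thinning to 2000 UMIs the Ptgs2 ratio was -0.69. The remaining genes of the 8 lowest were Pet100, Hsp90aa1 and Tardbp, with cold ratios of -1.38, -0.81 and -1.29.

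**Figure D3:**
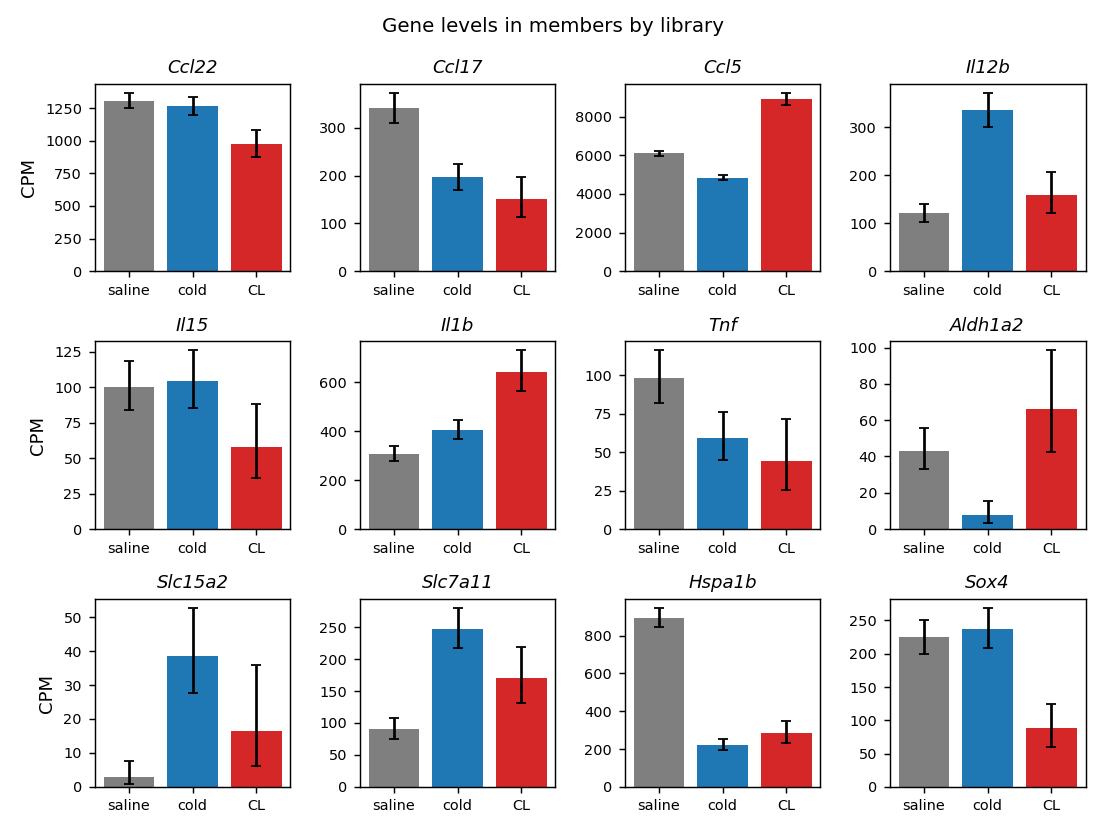
Levels of 12 genes in members of each library, in CPM of summed UMIs, with exact 95% Poisson intervals of counting as lines; each panel has its own axis from 0. Il12b, Slc7a11 and Slc15a2 were highest in cold, Ccl5 and Il1b highest in CL, Ccl17, Tnf and Hspa1b highest in saline, and Aldh1a2 lowest in cold.

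CL members were compared with saline members in the same way, from fewer members and UMIs than in cold (362722 against 1034646). Of 4787 genes 178 were at least 2-fold higher in CL (3.72%) and 232 at least 2-fold lower (4.85%), or 8.56% in either direction. The median gene was 0.05 higher, with 54.4% of genes higher and 45.6% lower by any size. With the highest member of each gene left out, 95 genes were at least 2-fold higher and 300 at least 2-fold lower; this takes a larger share from the 84 CL members than from the 246 saline members. Both comparisons use the same saline members.

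Interferon response genes had the highest median of the lists in CL. All 12 measured genes were higher than in saline, against 54.4% of all genes, and 8 were at least 2-fold higher, against 3.72%. Their median was 1.46, against 0.05 over all genes. In cold 4 of 11 were higher, against 60.7% of all genes, with a median of -0.11. Ifi27l2a, a mitochondrial protein gene induced by interferon, stood at 92.1, 124 and 579 CPM in saline, cold and CL, with a CL ratio of 2.65. Isg15, a ubiquitin-like modifier, stood at 159, 114 and 394 CPM (1.31), and Irf7, the factor that amplifies interferon production, at 18.3, 4.83 and 93.7 CPM (2.36). Zbp1, a sensor of unusual nucleic acids, stood at 30.7, 28 and 141 CPM (2.19), Ifi47, an interferon-inducible GTPase, at 10.2, 3.87 and 74.4 CPM (2.86), and Isg20, an exonuclease, at 4.39, 2.90 and 66.2 CPM (3.91). Mx1 and Usp18 stood apart from these, at 57.0, 57.0 and 60.7 CPM and at 51.2, 47.4 and 77.2 CPM, the first with a ratio of 0.09. Ifit1 and Irf7 were the 2 of 11 genes at least 2-fold lower in cold than in saline, against 2.27% of all genes. They had 31, 1 and 25 UMIs and 25, 5 and 34 UMIs in saline, cold and CL.

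**Figure D4:**
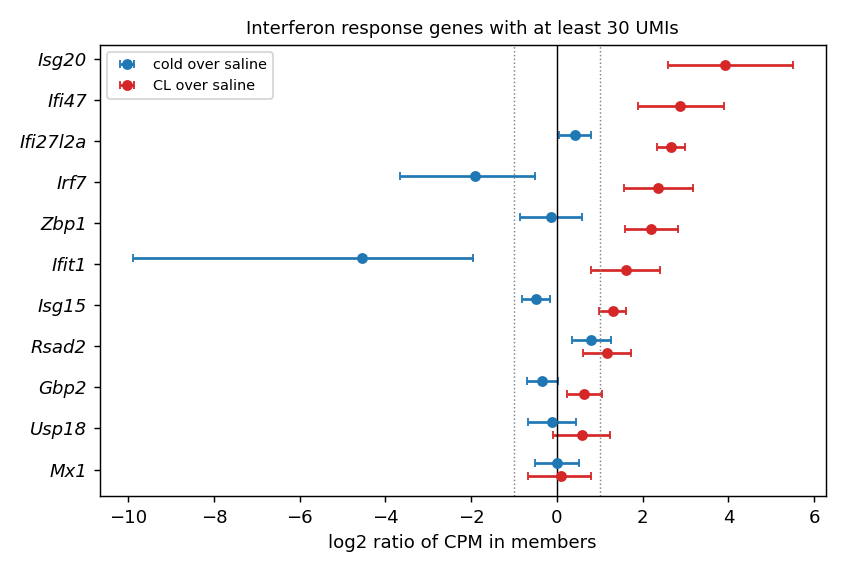
Log2 ratio of CPM over saline for 11 of the 12 interferon response genes measured for CL (red), and for cold (blue) where measured, with exact 95% intervals of counting; dotted lines mark 2-fold. All 11 CL points lie above 0 and 8 beyond 2-fold, while the cold points lie on both sides of 0.

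The signal was unevenly spread over the CL members. With each cell thinned to 2000 UMIs, the median member held 1 interferon list UMI in saline, 1 in cold and 2 in CL, while the 90th percentile was 4, 3 and 11 and the highest member held 13, 9 and 45. At least 3 UMIs were found in 22.6% of saline, 18.7% of cold and 36.6% of CL members. The 10 highest members held 24.1% of the list's UMIs in saline, 26.0% in cold and 60.1% in CL, where however these 10 were a larger share of the 82 members. The list's CL median was 0.88 when members with any C1q UMI were left out and 1.02 without members that carry T cell, B cell or fat progenitor markers, and in each case 11 of 11 measured genes were higher.

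**Figure D5:**
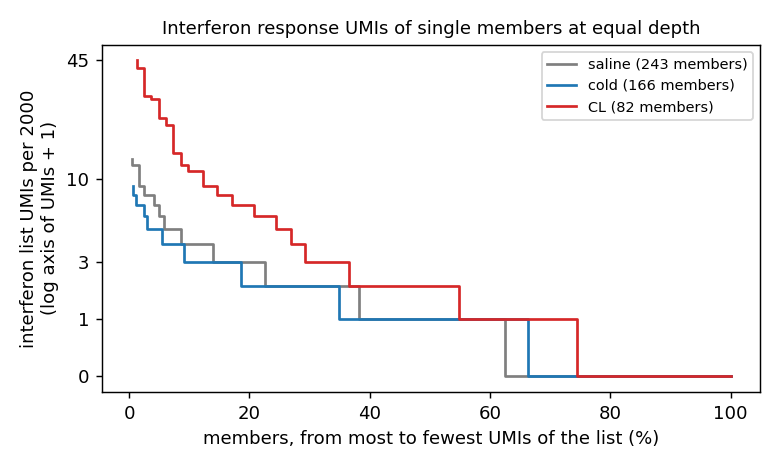
Interferon list UMIs of each member after thinning to 2000 UMIs, on a log axis of UMIs plus 1, with members of each library ordered from highest to lowest and placed by percent. The CL line starts at 45 UMIs and lies above the others over its upper part, and all 3 lines reach 0 among the lowest members.

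The interferon difference was not limited to members. The list summed to 816, 766 and 2316 CPM in saline, cold and CL members, to 612, 329 and 4503 CPM in type 2 dendritic cells, to 349, 195 and 2191 CPM in type 1 dendritic cells and to 416, 296 and 1392 CPM in B cells. It summed to 2151, 779 and 8475 CPM in macrophages and to 1213, 600 and 6821 CPM in fat progenitors. Members thus held the list at a higher level than type 1, type 2 and B cells in saline. In CL they held it at a lower level than type 2 cells. Macrophages, fat progenitors, endothelial cells and T cells stood above members in both saline and CL. The part of RNA from other cells in this difference was not tested.

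The upstream sequences of the list were read for the interferon-stimulated response element, spelled GAAA, any 2 bases and GAAA, on both strands of the same 250 bases. Of 20 genes 14 had an entry and 7 held a match (Gbp2, Ifit1, Ifit3, Igtp, Isg15, Rsad2 and Stat2), and 3.46% of all genes with an entry held one. Irf7, Ifi47 and Isg20 held none, which says only that these letters are not in the window. The 4 stretches below run 5′ to 3′ on the gene's strand, with matches in capitals that read TTTC where they lie on the other strand, and cover abundant and scarce genes of the list. They lie at chr4:156200855-156200916 (minus strand), chr19:34640765-34640833 (plus strand), chr19:34583353-34583436 (plus strand) and chr12:26456543-26456592 (minus strand).
Isg15: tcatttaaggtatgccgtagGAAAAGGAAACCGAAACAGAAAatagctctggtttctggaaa
Ifit1: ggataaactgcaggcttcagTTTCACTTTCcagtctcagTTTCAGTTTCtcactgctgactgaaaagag
Ifit3: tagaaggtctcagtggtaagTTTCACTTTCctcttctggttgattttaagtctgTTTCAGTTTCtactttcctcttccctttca
Rsad2: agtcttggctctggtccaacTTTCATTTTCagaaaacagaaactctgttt
Of these, Rsad2, the antiviral enzyme viperin, stood at 54.8, 95.7 and 124 CPM in saline, cold and CL members, and Ifit3, which binds viral RNA, had 1, 1 and 15 UMIs.

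Chemokine genes were mostly higher in CL members, with much of their RNA in few cells. Of 10 measured chemokine genes 8 were higher, against 54.4% of all genes, and 4 were at least 2-fold higher, against 3.72%. Their median was 0.65, against 0.05 over all genes. Ccl4 stood at 35.8, 27.1 and 154 CPM (2.11), yet 1 member held 39 of the 56 UMIs in CL and 1 held 32 of 49 in saline. Cxcl9, an interferon-induced ligand of Cxcr3, stood at 15.4, 32.9 and 88.2 CPM (2.52), from 6 CL members of which 5 held 31 of 32 UMIs. Ccl5 was detected in 209 of 246 saline, 145 of 167 cold and 73 of 84 CL members, at 6092, 4840 and 8932 CPM, with a ratio of 0.55 (0.49 to 0.61) for CL over saline and 0.88 over cold. In CL the 5 highest members held 1207 of 3240 UMIs and 1 of them held 415, while in saline the 5 highest held 1294 of 8332. Its median per member was 14.5 UMIs in saline, 19 in cold and 15.5 in CL. Ccl17 was the chemokine at least 2-fold lower in CL, with a ratio of -1.17 (-1.60 to -0.77), and its partner Ccl22 stood at -0.43 (-0.59 to -0.26).

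Cytokines split in CL. Il1b stood at 308, 405 and 642 CPM in saline, cold and CL, a CL ratio of 1.06, and was detected in 61 of 246, 40 of 167 and 44 of 84 members; thinned, in 17.3%, 15.7% and 45.1%. Type 2 dendritic cells, which held more, stood at 1656, 1850 and 1640 CPM, a different order. Tnf stood at 98.0, 59.0 and 44.1 CPM (-1.15) and Csf1, the macrophage growth factor, at 25.6, 30.9 and 5.51 CPM (-2.21) from 35, 32 and 2 UMIs. Il15, which sustains memory T and natural killer cells and was 6.89 CPM in type 1 and 6.10 CPM in type 2 cells, stood at 100, 104 and 57.9 CPM (-0.79).

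Among the other leading genes of CL, Nr4a3, a nuclear receptor linked to dendritic cell migration, stood at 393, 571 and 838 CPM, with a ratio of 1.09 (0.88 to 1.30). It was detected in 134 of 246, 99 of 167 and 61 of 84 members. In type 1 dendritic cells it stood at 374, 371 and 156 CPM, lowest in CL. Ubash3b, a phosphatase that dampens receptor signalling, stood at 27.8, 70.6 and 110 CPM (1.99), Ass1, an enzyme of arginine synthesis, at 20.5, 17.4 and 74.4 CPM (1.86), and Fgl2, a fibrinogen-like protein with immune-regulatory roles, at 87.7, 82.2 and 210 CPM (1.26). AA467197 had the highest interval bound, at 32.2, 65.7 and 141 CPM (2.13), but 1 member held 22 of its 51 UMIs in CL and the ratio without the highest members was 1.49. Slc25a33, Acp5 and Rab11fip1 completed the 8, with ratios of 2.31, 1.91 and 1.43.

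Among the 8 lowest genes in CL, Sox4, a transcription factor, stood at 224, 237 and 88.2 CPM (-1.35), against 9.91 CPM in type 2 cells. Cdcp1, a surface glycoprotein gene with no UMI in type 1 or type 2 cells, had 31 UMIs in 25 saline members, 26 in 17 cold members and none in 84 CL members, so it was at least 2.74-fold lower in CL than in saline against a floor of 3 UMIs over the CL members. Khdc1a and Oraov1 each had 41 UMIs in saline and 1 in CL, with ratios of -3.44 (-8.78 to -0.88) in both. Those 41 UMIs lay in 13 members for Khdc1a, with 15 in 1 member, and in 36 members for Oraov1. Crispld2 stood at 67.3, 52.2 and 19.3 CPM (-1.80). Hspa1b and Hspa1a completed the lowest 8 with Ccl17, at ratios of -1.64 and -1.02.

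The β3-adrenergic receptor that the agonist targets was not detected in members. Adrb3 and Adrb1 had no UMI in any of the 497. In the list of adrenergic receptors and cyclic AMP response genes 4 of 7 measured were higher in CL, with a median of 0.17, near the 54.4% and 0.05 over all genes. Crem stood at 47.5, 68.6 and 110 CPM (1.21 for CL) and Sik1, a kinase gene that cyclic AMP induces, at 27.1, 32.9 and 60.7 CPM (1.16). Crem in type 2 dendritic cells stood at 139, 160 and 130 CPM. Egr1 and Jun were lower in CL members than in saline, with ratios of -3.18 and -2.11, and also in type 1 dendritic cells, where Jun stood at 837, 343 and 95.1 CPM.

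CL and cold members were also compared directly. Of 4307 genes 106 were at least 2-fold higher in CL (2.46%) and 199 at least 2-fold lower (4.62%), or 7.08% in either direction. The median gene stood at -0.04, with 45.6% of genes higher and 54.4% lower by any size. Interferon genes were higher in 11 of 11 measured, with a median of 0.98, and heat shock genes in 10 of 10, with a median of 0.38. Tmem150c, with no UMI in type 1 or type 2 cells, stood at 114, 133 and 46.9 CPM (-1.51 for CL over cold), Prnp, the prion protein gene, at 130, 194 and 71.7 CPM (-1.44) and Zmynd15, a zinc finger gene, at 370, 607 and 301 CPM (-1.01). Plscr1, Calcrl, Wdr90 and Wrn were the other lowest genes besides Sox4, with 13, 2, 1 and 2 UMIs in CL. Besides Aldh1a2, Ass1, Fgl2 and Ccl5, the highest were Tardbp, Elmsan1, Uqcc2 and Atox1, with ratios of 1.46, 1.61, 1.43 and 0.86.

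Cell cycle genes stood between those of other classes. The 12 genes of the S phase list summed to 148, 126 and 185 CPM and the 12 genes of the G2/M list to 241, 275 and 447 CPM in saline, cold and CL. In type 1 dendritic cells the G2/M list summed to 1001, 1447 and 1202 CPM, and in plasmacytoid dendritic cells to 118, 112 and 119 CPM. Single members held 46 of the 330 G2/M UMIs in saline, 82 of 285 in cold and 81 of 162 in CL. Glycolysis and hypoxia genes were higher in cold in 6 of 7 measured, with a median of 0.42, and in CL in 6 of 7, with a median of 0.34, against 60.7% higher and 0.11 over all genes in cold and 54.4% and 0.05 in CL. The glucocorticoid response list had medians of -0.24 and -0.28, and the cold-inducible RNA-binding genes Cirbp and Rbm3 had cold ratios of 0.44 and 0.30.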

How the data were processed

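Single-cell RNA was measured in 3 libraries of inguinal stromal vascular cells, made with 10x Chromium 3' v3 chemistry per the labels. The authors deposited matrices of UMI counts, unnormalised, with 1 row per gene and 1 column per barcode; Cell Ranger 3.0.2 wrote them, per the file headers, and the submitters' processing notes name the build mm10. Aligner settings and annotation are not given in the sources used here.

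Members and comparator classes were taken by rules on raw UMIs, with no clustering. UMIs were summed over cells and scaled to a total of 1000000 (CPM), with exact Poisson intervals for levels, exact conditional binomial intervals for ratios, Clopper-Pearson intervals for shares and log-scale normal intervals for share ratios. With 1 library per group no test was run and no p-value is given. A gene counts as measured where both libraries of a comparison together hold at least 30 UMIs, and as called past 2-fold. The code was tested on simulated data.

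The members, the 34 gene lists and the rules were chosen with earlier results of these data known. Named are the rule genes with Apol7c and Il4i1, the list members, the 15 highest and 10 lowest genes against type 2 dendritic cells, and the 8 highest and 8 lowest genes of each comparison by the interval bound nearer to 0. The genes ranked in comparisons of libraries had a UMI in at least 10 members and at least 0.25 of the highest class level. These 2 limits were not set for the ranking against type 2 cells. All rankings left out mitochondrially encoded, ribosomal protein, haemoglobin, antigen receptor and predicted genes. They also left out the sex-linked genes Xist, Tsix, Ddx3y, Eif2s3y, Kdm5d and Uty. Jun, Egr1 and Apoe levels in single classes or cells were chosen after their values were seen. Doublets were not removed: Scrublet scores above 0.2 marked 2 saline, 1 cold and 1 CL members (125, 15 and 113 cells of the libraries), and their removal was an alternative. Free RNA was not subtracted. A few genes of the lists are counted in them but not reported by name here. The other alternatives changed the rule's limits, depth, scaling, the UMI filter and the highest member. Scripts used Python 3.11.15, numpy 2.4.6, scipy 1.17.1 and scanpy 1.11.5.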

Additional observations from a re-analysis of the deposited data

How the results depend on the processing

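No paired analysis was possible because there was 1 library per treatment; for the same reason no library could be left out, and depth and library size limit every comparison, most of all in the 84 CL members. The CL share of members stayed below saline and cold under the 8 alternatives. With at most 5% mitochondrial UMIs the log2 ratios of the share among all cells were 0.53 for cold over saline, -2.35 for CL over saline and -2.88 for CL over cold, and among antigen-presenting cells -2.06 for CL over cold. With at least 1000 genes the CL ratio to saline among all cells was -2.07. After thinning to 2000 UMIs, which also makes the rule harder to meet, the cold ratios to saline were -0.44 among all and -0.11 among antigen-presenting cells, and CL over cold was -1.30 among the latter.

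Counts of genes past 2-fold moved with the number of genes and UMIs tested. In the order cold over saline, CL over saline and CL over cold, thinning gave 50, 59 and 34 higher and 42, 60 and 42 lower genes, at least 100 UMIs gave 22, 31 and 15 higher and 29, 35 and 32 lower, and no filter gave 863, 1147 and 1214 higher and 1013, 844 and 937 lower. Centring on the median gene left 78 genes higher in cold. Without members carrying markers of other cell types 82 genes were lower in cold, and without the highest member of each gene 95 were higher in CL than in saline and 53 than in cold. After thinning, 18 ratios of named genes lay outside the interval they had with all UMIs and 29 lay within it. For cold over saline, Slc15a2 then stood at 0.85, Aldh1a2 at -0.38 and Gpd2 at 0.19. Rrad stood at 0.65, Slc7a11 at 2.24, Il12b at 1.10, Hsph1 at -0.85, Hspa1a at -1.07 and Ptgs2 at -0.69. Cdcp1 gave no value for CL over saline. The cause of these moves was not tested.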
